A study of Homo sapiens with 26 samples.

Results

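Solute carriers are the membrane proteins, numbered SLC by family, that move amino acids, ions, metals, nucleotides, vitamins and other small molecules across membranes. The 142 genes described here were chosen by level: they are the protein-coding solute carriers with a mean CPM (the share of a library's total count that falls on a gene, scaled to the same total in every library) of 10 or more in at least 1 of the 10 sample groups. They came from 302 carriers considered, of 62778 genes in the 3 deposited tables. The families SLC2, SLC25 and SLC37 and the genes SLC7A11, SLC16A3 and SLC40A1 were not considered. The level rule used the same libraries as the tests below, so the levels are a description, and a carrier that reached the level in only some groups had to differ between groups. The carriers just inside the rule were SLC30A4 at 10.3 CPM, SLC10A7 at 10.4, SLC38A4 at 10.8 and SLC46A3 at 10.9 in their highest group, and those just outside were SLC15A2 at 9.82, SLC30A10 at 9.76, SLC7A2 at 9.24 and SLC16A6 at 8.84. The set is not one of plasma membrane proteins alone: 40 of the 142 work mainly in the Golgi, endoplasmic reticulum, lysosome or other inner membranes, among them the nucleotide sugar carriers of SLC35 and their relatives, and all are called expressed solute carriers here.

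The study changed HNF4α, a nuclear receptor made in liver, gut and pancreas, in 3 human pancreatic ductal adenocarcinoma (PDAC) cell lines. HNF4A has a pair of promoters, P1 and P2, that give proteins with different N-terminal ends. In Panc10.05, doxycycline induced the P1-a2 isoform at 25 ng/mL or the P2-a8 isoform at 12.5 ng/mL, and the control (NC) carried GFP and had 25 ng/mL, so isoform and dose change together there. In BxPC3, the P1-a2, P2-a8 and empty-vector (EV) control cells all had 500 ng/mL. ASPC1 (the AsPC-1 line) had no doxycycline and was targeted by CRISPR interference (CRISPRi) with guides sgP1E and sgP1J to P1, sgP2D and sgP2G to P2, sgDual2 and sgDual3 to both, or the control sgNC. Each induced group and sgNC had 2 libraries and each pair of guides had 4, which makes 26 libraries. All cells grew in RPMI-1640 with fetal bovine serum. The time of induction, and whether a group was a pool or a clone, are not given in the sources used here.

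As background, the carriers of the gut and kidney brush border take up peptides, amino acids, phosphate and sodium at the apical face and pass amino acids and organic ions to the blood at the basolateral face. HNF4α is known as a regulator of such genes in enterocytes, hepatocytes and proximal tubule cells. Several carriers work as pairs, such as SLC3A2, the heavy chain (CD98) that brings the light chains SLC7A5, SLC7A6, SLC7A7 and SLC7A8 to the cell surface.

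The shallowest and deepest libraries held 34618745 and 46827673 counts for Panc10.05, 26369154 and 37483772 for BxPC3, and 26079388 and 50662077 for ASPC1. HNF4A itself stood at 0.241 and 0.0578 CPM in the Panc10.05 controls, 10.7 and 12.9 with P1-a2 and 37.6 and 37.8 with P2-a8. In BxPC3 it was 1.0998 and 0.468 in the controls, 9.76 and 11.5 with P1-a2 and 12.6 and 13.96 with P2-a8, and in ASPC1 it was 202 and 218 with sgNC, 110 to 148 with the P1 guides, 78.7 to 93.3 with the P2 guides and 3.15 to 13.5 with the dual guides. Gene counts do not separate the isoforms. The epithelial markers summed to 5699 to 14217 CPM over the 10 groups with all 5 genes detected, but KRT7 was only 1.04 to 6.04 in ASPC1. Leukocyte markers stayed at 8.92 CPM or less and endothelial ones at 4.33 or less. Fibroblast markers were 4.70 to 17.98 in the induced lines and 154 to 283 in ASPC1, there nearly all from LUM. That sum was 169 with sgNC and 283 with the dual guides, and its part in the dual-guide results was not tested. The epithelial sum was 5699 in the Panc10.05 controls, 8026 with P1-a2 and 9638 with P2-a8. In BxPC3 it was 7492, 9995 and 8451 in the same order. The markers did not move together. With P1-a2, KRT8, KRT18 and EPCAM rose in both induced lines by the test used below. KRT7 fell in Panc10.05, from a mean of 1174 CPM to 974. In BxPC3 KRT7 went from 1963 to 1770 and KRT19 from 2708 to 2472, and neither passed. The liver markers ALB and APOB summed to 0.308 CPM or less outside induced BxPC3, where APOB was 12.6 with P1-a2 and 3.11 with P2-a8. In bulk RNA, fewer cells of a type and less RNA per cell cannot be told apart. Nothing in the labels says that libraries of a group came from separate cultures, so p-values measure only the spread between these libraries.

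Promoter sequences are printed first for 4 carriers whose values return below. SLC15A1, the peptide carrier PEPT1, SLC9A2, the sodium-proton exchanger NHE2, and SLC35D1, a nucleotide sugar carrier of the endoplasmic reticulum, moved in the same sense with HNF4A in all 3 lines, with P1-a2 as the induced isoform. With P2-a8 as the isoform, this passed the test below in all 3 lines for SLC15A1 and SLC9A2 and not for SLC35D1. SLC41A2, a magnesium carrier, gave the widest difference of the P1-a2 response between the induced lines among carriers with 10 CPM or more in some group of both lines. The windows are the 250 bases before the RefSeq transcript start in GRCh38.p14, 5′ to 3′ on the gene's strand: chr13:98752673-98752922 on the minus strand, chr2:102619303-102619552 on the plus strand, chr1:67054149-67054398 on the minus strand and chr12:104958747-104958996 on the minus strand. Capitals mark the letters CAAAGTC or their reverse complement GACTTTG, the core of the HNF4 recognition sequence.
SLC15A1: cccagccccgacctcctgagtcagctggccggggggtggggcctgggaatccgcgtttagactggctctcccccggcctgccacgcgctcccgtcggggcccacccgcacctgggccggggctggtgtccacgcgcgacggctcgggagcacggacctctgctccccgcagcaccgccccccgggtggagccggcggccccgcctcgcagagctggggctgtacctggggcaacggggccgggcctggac
SLC9A2: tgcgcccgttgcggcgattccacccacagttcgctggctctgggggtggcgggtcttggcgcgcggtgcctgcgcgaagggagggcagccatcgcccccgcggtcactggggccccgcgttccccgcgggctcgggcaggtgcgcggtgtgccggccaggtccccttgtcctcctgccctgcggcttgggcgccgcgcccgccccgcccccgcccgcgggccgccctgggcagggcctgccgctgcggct
SLC35D1: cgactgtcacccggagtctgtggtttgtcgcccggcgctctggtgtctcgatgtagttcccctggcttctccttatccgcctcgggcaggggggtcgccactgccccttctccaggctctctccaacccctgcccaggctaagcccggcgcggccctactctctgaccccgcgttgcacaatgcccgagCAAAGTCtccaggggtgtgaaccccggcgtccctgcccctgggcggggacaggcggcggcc
SLC41A2: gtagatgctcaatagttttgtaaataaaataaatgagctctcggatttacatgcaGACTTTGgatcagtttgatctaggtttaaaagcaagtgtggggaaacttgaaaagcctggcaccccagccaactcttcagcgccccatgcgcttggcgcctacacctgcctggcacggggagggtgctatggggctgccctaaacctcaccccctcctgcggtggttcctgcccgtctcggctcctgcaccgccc
The core begins 61 bases before the start in SLC35D1 and 195 bases before it in SLC41A2, and the letters are not in the other 2 windows. RefSeq windows were matched for 116 of the 142 carriers, 178 windows in all. The longer letters CAAAGTCCA were in 0 of these 178 windows on either strand and in 0.325% of the 35116 windows of all genes. The HNF1 element and the direct repeat of AGGTCA with 1 base between were also in 0 of the 178, and in 0.0057% and 0.0171% of all windows. The short core CAAAGTC, which also lies within CAAAGTCCA and was added after the data were seen, was in 9 carrier windows (5.06%) and in 2.91% of all windows. Those 9 belonged to SLC7A7, SLC26A6, SLC35D1, SLC41A2, SLC24A1, SLC30A4, SLC38A4, SLC44A5 and SLC9B2. A match is a description of letters, not a site.

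Of the 142 carriers, 85 reached the level in all 10 groups and 90 in all 3 controls. The other end of the range was 7 carriers at the level in 1 group only (SLC10A7, SLC14A1, SLC22A4, SLC30A4, SLC35F3, SLC38A4 and SLC6A14). By line, 115 carriers reached the level in some group of Panc10.05, 125 in BxPC3 and 123 in ASPC1. BxPC3 alone held 11, including the glutamate carrier SLC1A3, the glycine carrier SLC6A9, the glutamine carrier SLC38A5 and the amino acid exchanger SLC7A8. ASPC1 alone held 8, including the glutamate carrier SLC1A1, the proline carrier SLC6A20 and the urea carrier SLC14A1, and Panc10.05 alone held 3, SLC16A7, SLC22A4 and SLC30A4.

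Per kilobase of exon, so that genes can be compared, the highest median of the 10 group means belonged to SLC1A5, the glutamine carrier ASCT2, at 91.0 CPM per kb. It was followed by the glutamine carrier SLC38A2 at 72.1, the leucine exchanger SLC7A5 at 65.1, its heavy chain SLC3A2 at 55.5, the phosphate importer SLC20A1 at 50.3 and the riboflavin carrier SLC52A2 at 49.99. The leading members of the metal, nucleotide sugar and anion exchange families were SLC39A7 at 40.7, SLC35B2 at 38.6 and SLC4A2 at 37.8. Within a family the spread was wide: SLC1A3 stood at 0.219 against SLC1A5, SLC7A8 at 0.0795 against SLC7A5, SLC38A4 at 0.0014 against SLC38A2 and SLC6A14 at 0.101 against the creatine carrier SLC6A8 at 32.2. These low medians come from genes used in 1 line only.

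**Figure D1:**
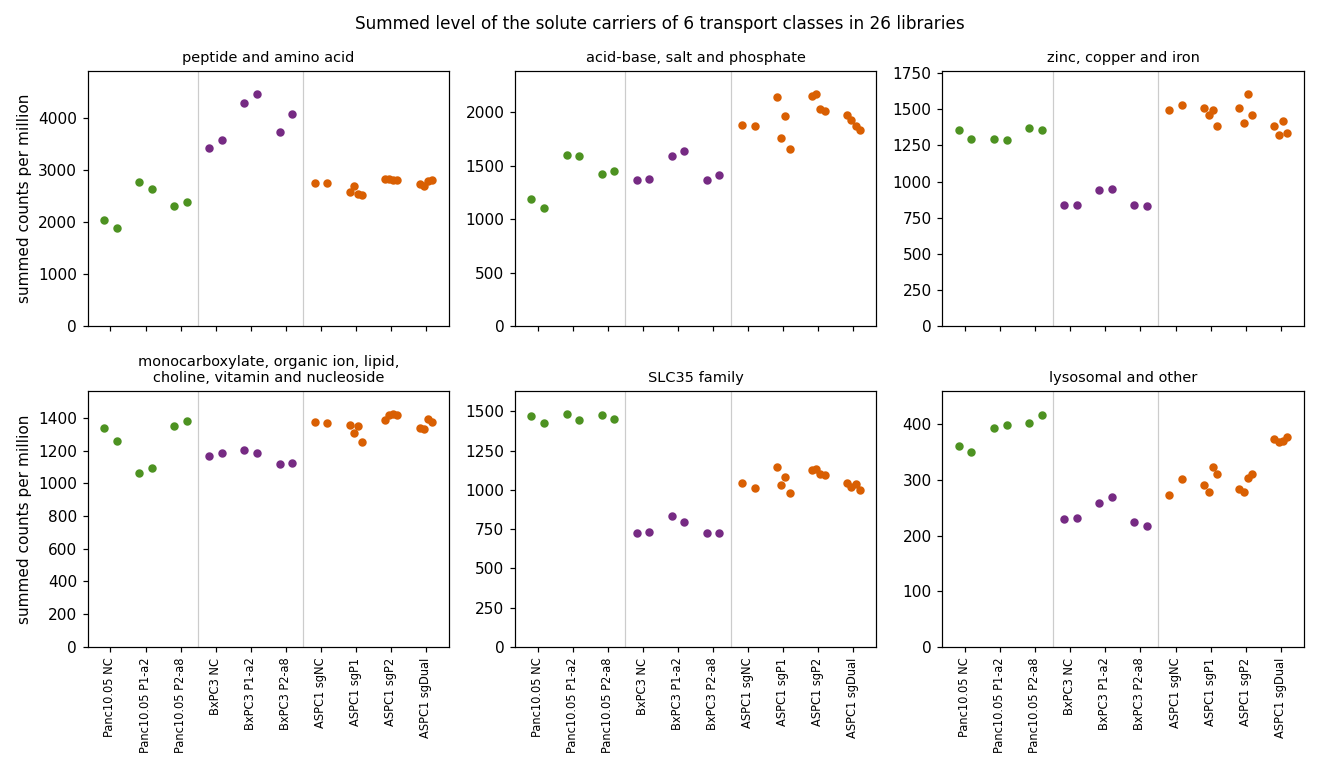
Summed CPM of the carriers of 6 transport classes (y axis, linear from 0) by group (x axis), with 1 point per library. The peptide and amino acid class stood at 1894 and 2038 in the Panc10.05 controls and at 2634 and 2775 with P1-a2, and at 3424 and 3582 in the BxPC3 controls and 4285 and 4461 with P1-a2, while the 14 ASPC1 libraries lay between 2526 and 2833.

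The summed level of all 142 carriers was higher with P1-a2 and with P2-a8 than in the controls in both induced lines. It was 7325 and 7753 CPM in the Panc10.05 controls, 8453 to 8611 with P1-a2 and 8340 to 8441 with P2-a8. In BxPC3 it was 7754 and 7946 in the controls, 9120 and 9304 with P1-a2 and 8017 and 8374 with P2-a8, and in ASPC1 all 14 libraries lay between 8109 and 9292. Neither the P1-a2 nor the P2-a8 groups overlapped their controls, by a narrow margin for P2-a8 in BxPC3. With P1-a2 the largest part of the gain was in carriers of peptides and amino acids, as the plot of summed levels by class shows. Abundant genes weigh most in such a sum. In Panc10.05 SLC3A2 went from 291 and 289 CPM to 577 and 503, and SLC7A5 from 179 and 156 to 387 and 393. Of the 26 carriers of peptides and amino acids tested there, 13 rose and 8 fell. The class of monocarboxylate, organic ion, lipid, choline, vitamin and nucleoside carriers went the other way in Panc10.05, from 1257 and 1340 CPM to 1063 and 1092 with P1-a2, with 1351 and 1379 with P2-a8.

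A gene was called at an adjusted p under 0.05 (edgeR's quasi-likelihood test, Benjamini-Hochberg over all genes tested in the table). In Panc10.05, 134 carriers passed the filter on low counts. With P1-a2, 61 were higher and 45 lower than in the control, against 31.5% and 30.5% of all genes, and with P2-a8, 56 were higher and 30 lower, against 23.7% and 22.5% of all genes. The carriers' shares were 45.5% and 33.6% with P1-a2 and 41.8% and 22.4% with P2-a8, and among all genes that also reached 10 CPM in some group they were 34.7% and 37.8%, and 28.1% and 29.5%. The rises thus stood above both backgrounds and the falls did not stand above the second. Both comparisons use the same 2 control libraries. Directly between the isoforms, 21 carriers were higher with P1-a2 than with P2-a8 (22.2% of all genes) and 50 lower (24.7% of all genes).

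In BxPC3, 141 carriers were tested. With P1-a2, 58 were higher and 19 lower than with the empty vector, against 17.1% and 14.9% of all genes. The carriers' shares were 41.1% and 13.5%, and among all genes that also reached 10 CPM in some group, 22.2% were higher and 19.6% lower. With P2-a8, 15 carriers were higher and 9 lower (4.3% and 2.69% of all genes), a count of 24 that fell to 11 without the second control library and 12 without the first. Between the isoforms, 43 were higher with P1-a2 (11.6% of all genes) and 11 lower (10.8% of all genes).

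In ASPC1, 138 carriers were tested. The 4 libraries of a targeted group, 2 from each of 2 guides, were fitted as 1 group. The p-values therefore take guides and libraries alike as replicates, and counts from a fit by guide are given at the end. With the dual guides, 45 were higher and 24 lower than with sgNC, against 17.8% and 17.8% of all genes and 20.7% and 23.9% of those at the level, and this count of 69 fell to 36 without the first sgNC library. With the P2 guides, 4 were higher and 5 lower (1.66% and 1.76% of all genes), a count of 9 that fell to 2 without either sgNC library or the first library of sgP2D or sgP2G, and to 5 without the second library of these or any 1 dual-guide library. With the P1 guides, edgeR called 0 carriers against 0.265% of all genes. There, 25 of 138 carriers and 1516 of all 16992 genes tested had an unadjusted edgeR p under 0.05. DESeq2 called 3 carriers. Between the P2 and P1 guides, 7 were higher with the P2 guides and 9 lower (2.17% and 2.13% of all genes), 16 in all, 8 without the first sgP2G library and 10 without the first sgP2D library.

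**Figure D2:**
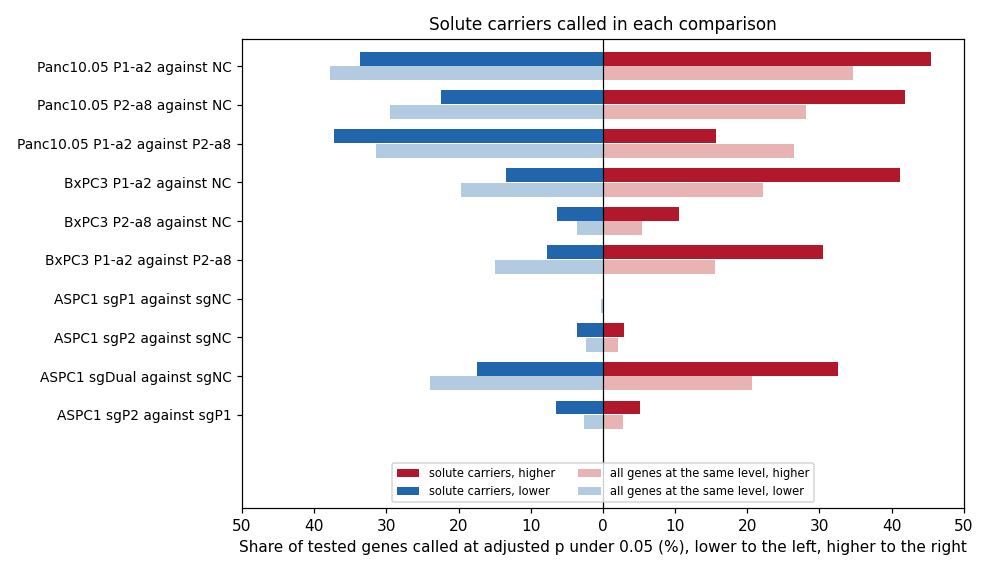
Share of the tested carriers called higher (to the right) and lower (to the left) in each of the 10 comparisons (dark bars), above the same share of all genes with 10 CPM in some group (pale bars). The widest gap on the higher side is BxPC3 P1-a2 against NC, 41.1% of carriers and 22.2% of all such genes, and the carriers chosen only through the group where they are high add to both sides.

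The peptide and amino acid carriers, 30 in number, included SLC15A1 and SLC7A7, which had log2 changes above 4 in BxPC3. With P1-a2, 13 of 26 tested were higher and 8 lower in Panc10.05, and 18 of 30 were higher and 5 lower in BxPC3. With P2-a8 the counts were 12 and 5 in Panc10.05 and 7 and 3 in BxPC3, and with the dual guides 11 of 28 were higher and 5 lower. Among all genes at the level, the shares higher and lower with P1-a2 were 34.7% and 37.8% in Panc10.05 and 22.2% and 19.6% in BxPC3. With P2-a8 they were 28.1% and 29.5% in Panc10.05 and 5.48% and 3.55% in BxPC3. With the dual guides they were 20.7% and 23.9%. The counts of each class and family below are read against the shares of the same comparison.

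SLC15A1 (ENSG00000088386, chromosome 13, 98683801 to 98752654, minus strand) is the proton-coupled peptide carrier of the intestinal brush border. It stood at 2.41 and 1.99 CPM in the Panc10.05 controls, 24.6 and 29.8 with P1-a2 and 40.7 and 45.5 with P2-a8. In BxPC3 it was 0.152 and 0.358 in the controls, 34.8 and 42.7 with P1-a2 and 6.54 and 7.96 with P2-a8. In ASPC1, where HNF4A was high to begin with, it was 234 and 258 with sgNC, 192 to 217 with the P1 guides, 203 to 292 with the P2 guides and 113, 97.7, 121 and 94.3 with the dual guides. No induced or dual-guide library overlapped its control. The log2 change was 3.62 ± 0.13 (SE, n = 2 against 2, adjusted p = 8.56e-25) with P1-a2 and 4.27 ± 0.12 (8.54e-27) with P2-a8 in Panc10.05. In BxPC3 it was 7.17 ± 0.25 (2.19e-08) with P1-a2 and 4.76 ± 0.29 (5.11e-06) with P2-a8. With the dual guides it fell by 1.21 ± 0.12 (3.88e-06, n = 4 libraries from 2 guides against 2). The order of the isoforms differed by line: P1-a2 was below P2-a8 by -0.65 ± 0.09 in Panc10.05 and above it by 2.42 ± 0.15 in BxPC3, both past the threshold. HNF4A was 10.7 and 12.9 CPM with P1-a2 and 37.6 and 37.8 with P2-a8 in Panc10.05. In BxPC3 it was 9.76 and 11.5, and 12.6 and 13.96. Isoform, dose and HNF4A level cannot be told apart in Panc10.05.

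SLC15A3, a peptide and histidine carrier of the lysosome, went the opposite way. It was 14.1 and 16.1 CPM in the Panc10.05 controls, 0.925 and 0.907 with P1-a2 and 5.02 and 6.85 with P2-a8, and 24.3 and 26.2 in the BxPC3 controls against 14.5 and 12.4 with P1-a2. Its log2 change with P1-a2 was -4.03 ± 0.17 (adjusted p = 2.82e-23) in Panc10.05, the deepest fall of any carrier in that comparison, and -0.88 ± 0.11 (0.000112) in BxPC3. In ASPC1 it was under 3 CPM in every library. TMEM132A on the other strand overlaps its exons, so reads of that gene can enter its count.

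SLC7A7, the light chain y+LAT1 that exports arginine and lysine at the basolateral face, was near the floor in the Panc10.05 controls. It stood at 0.12 and 0.0289 CPM there, or 5 counts and 1 count, at 5.55 and 4.97 with P1-a2 and at 7.47 and 7.44 with P2-a8. In BxPC3 it rose from 1.02 and 1.102 to 31.8 and 32.4 with P1-a2 and to 6.74 and 9.04 with P2-a8. In ASPC1 it was 97.7 and 106 with sgNC, 66.3 to 96.0 with the P1 guides, 113 to 119 with the P2 guides and 42.5 to 49.3 with the dual guides, and these 4 ranges do not overlap. The log2 changes in BxPC3 were 4.93 ± 0.18 (adjusted p = 1.21e-08) with P1-a2 and 2.91 ± 0.19 (5.2e-06) with P2-a8, and the dual guides gave -1.17 ± 0.11 (2.24e-06).

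SLC7A5, the light chain LAT1 that imports leucine and other large neutral amino acids, was the most abundant gene of its family. It went from 179 and 156 CPM to 387 and 393 with P1-a2 and 339 and 390 with P2-a8 in Panc10.05, and from 491 and 511 to 794 and 877 with P1-a2 in BxPC3. With the dual guides it was 151, 151, 172 and 179, against 279 and 228 with sgNC. With P1-a2 the log2 change in Panc10.05 was 1.22 ± 0.07 (adjusted p = 7.11e-18), that in BxPC3 was 0.77 ± 0.10 (0.000961), and the dual guides gave -0.64 ± 0.16 (0.00632), a call lost without the first sgNC library (adjusted p = 0.125).

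The other chains of this exchanger group also rose with P1-a2. The heavy chain SLC3A2 went from 291 and 289 CPM to 577 and 503 in Panc10.05 and from 256 and 271 to 398 and 405 in BxPC3, log2 changes of 0.90 ± 0.06 and 0.64 ± 0.07. The light chain SLC7A6 rose by 1.07 ± 0.06 and 0.45 ± 0.09. SLC7A8, a light chain for small and large neutral amino acids, was 29.01 and 28.4 CPM in the BxPC3 controls, 74.2 and 72.3 with P1-a2 and 57.2 and 56.5 with P2-a8. In Panc10.05 the same gene had 1 count in the 2 controls together and 14 counts with P1-a2, a ratio of 12.5 with a 95% exact interval of counting error from 1.9 to 529. In all, 4 of the 5 SLC7 members rose with P1-a2 and none fell in each induced line (the SLC7A8 call in Panc10.05 was lost with DESeq2 and without the first P1-a2 or the second control library, adjusted p up to 0.308), with a family median of 1.22 in Panc10.05 and 0.77 in BxPC3, beside 0.02 and -0.01 over all genes.

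The sodium- and chloride-coupled SLC6 carriers fell with P1-a2 in Panc10.05, all 3 of those tested, and were split in BxPC3, with 2 higher and 2 lower of 5. Among all genes at the level, 37.8% were lower in Panc10.05, and 22.2% were higher and 19.6% lower in BxPC3. The creatine carrier SLC6A8 fell by 0.51 ± 0.09 in Panc10.05 and rose by 0.42 ± 0.06 in BxPC3, from 146 and 149 CPM to 199.7 and 187. SLC6A6, which imports taurine, was 25.2 and 25.7 CPM in the Panc10.05 controls and 12.7 and 12.7 with P1-a2, and 24.3 and 27.0 against 14.5 and 14.8 in BxPC3. Its log2 changes were -0.998 ± 0.09 and -0.78 ± 0.09. SLC6A14, a broad carrier of neutral and cationic amino acids, fell in BxPC3 from 42.3 and 32.8 CPM to 8.88 and 5.60 with P1-a2 and 7.34 and 3.87 with P2-a8. It reached the level in the BxPC3 controls only, so the rule that chose it favoured this fall. In ASPC1 it had 2 counts in the sgNC libraries and 114 in the dual-guide libraries, a ratio of 25.6 with an exact interval from 6.93 to 214 (adjusted p = 0.0634 without the first sgNC library).

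With the dual guides, 4 of the 5 SLC6 members rose and none fell, but SLC6A6 (adjusted p = 0.265) and SLC6A14 lost their calls without the first sgNC library. Among all genes at the level, 20.7% were higher and 23.9% lower with these guides. SLC6A20, which carries proline, was 76.7 and 103 CPM with sgNC and 236 to 290 with the dual guides, a log2 change of 1.56 ± 0.16 (adjusted p = 8.73e-06), but 50.9 to 70.7 with the P2 guides, a change of -0.66 ± 0.15 (0.0267). The latter call was lost without the second sgNC library (adjusted p = 0.328), the first sgP2D library or either sgP2G library. SLC6A9, the glycine carrier GLYT1, rose by 2.47 ± 0.24 with the dual guides, rose by 1.03 ± 0.13 with P1-a2 in BxPC3 and fell by 1.35 ± 0.16 with P1-a2 in Panc10.05. CCDC24 on the other strand overlaps its exons.

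The glutamate, glutamine and leucine families split by line. SLC1A3, a glutamate carrier used mainly by BxPC3, was 78.6 and 91.4 CPM in its controls, 51.2 and 42.9 with P1-a2 and 61.4 and 61.2 with P2-a8, and rose in Panc10.05 from 0.433 and 0.289 to 2.49 and 2.57 with P1-a2. SLC43A2, a facilitated leucine carrier, fell by 1.26 ± 0.11 with P1-a2 in Panc10.05 and rose by 0.62 ± 0.08 in BxPC3, and by 1.17 ± 0.13 with the dual guides. Of the 8 SLC38 members, 6 rose with P1-a2 in BxPC3 and none fell, with changes of the 6 from 0.18 to 0.41, while in Panc10.05 2 rose and 2 fell. The shares of all genes at the level were 22.2% higher and 19.6% lower in BxPC3, and 34.7% and 37.8% in Panc10.05. SLC38A2, the stress-responsive carrier SNAT2, rose by 0.44 ± 0.06 and 0.31 ± 0.08 in the induced lines with P1-a2 and by 0.37 ± 0.09 with the dual guides. The BxPC3 call of SLC38A2 was lost without the first control library (adjusted p = 0.122) or the second P1-a2 library (0.103), and the dual-guide call without the first sgNC library (0.11).

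**Figure D3:**
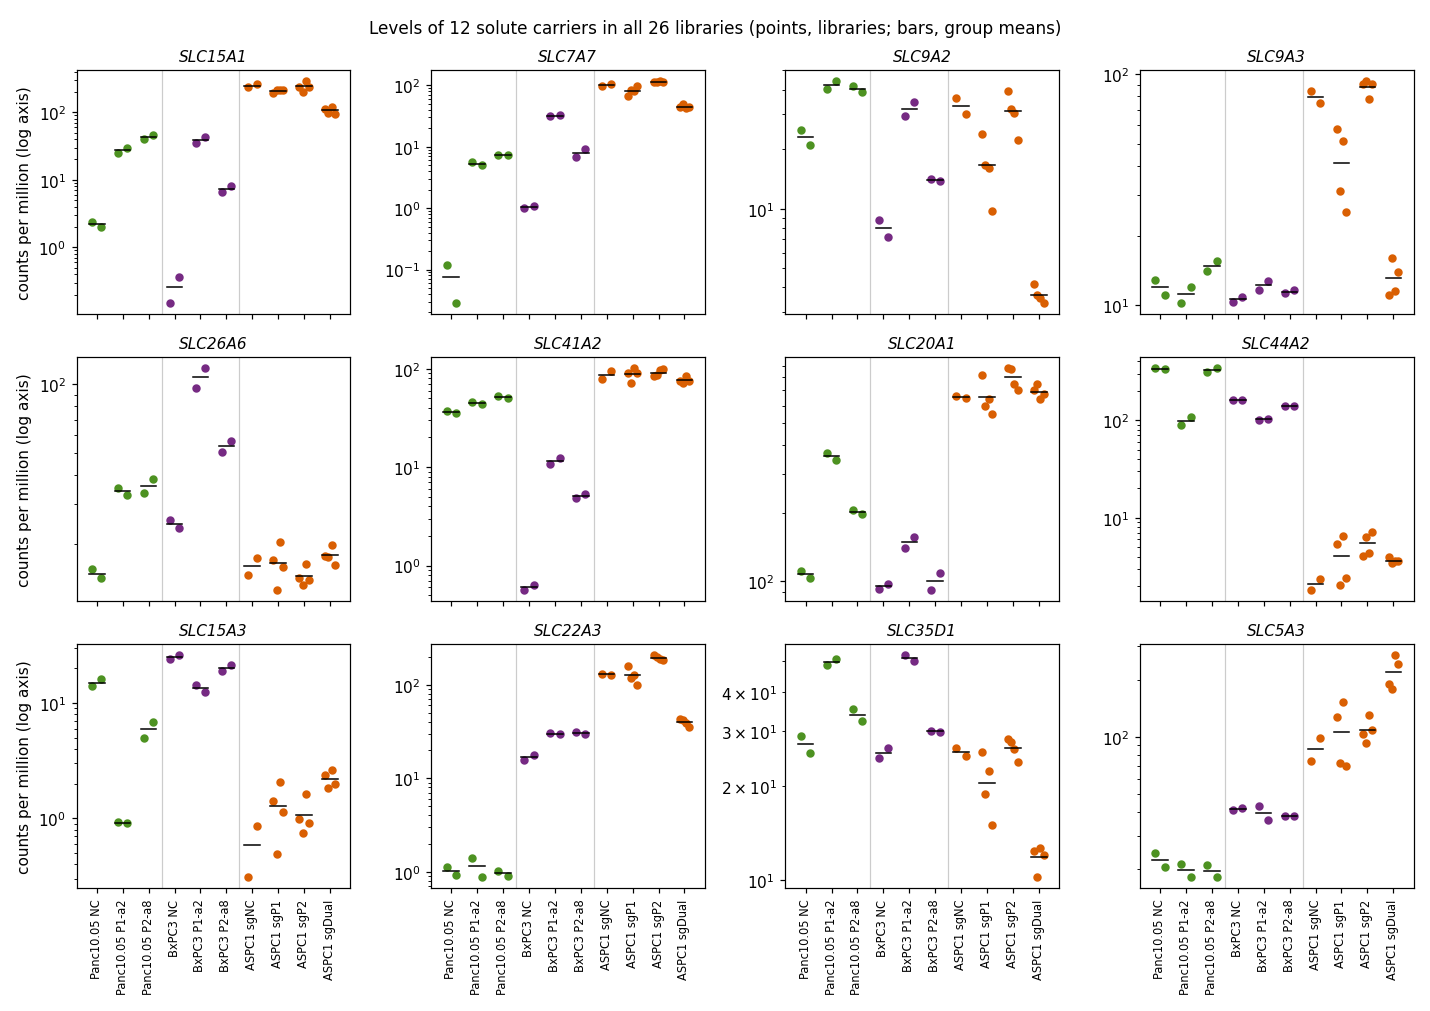
CPM on a log axis for 12 carriers (panels) in all 26 libraries (points) by group (x axis), with black bars at the group means. SLC15A1 and SLC7A7 are higher in every induced library than in its control and lower in every dual-guide library than with sgNC, and SLC9A3 is spread widely among the P1-guide libraries, 25.2 to 57.8.

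The 24 acid-base, salt and phosphate carriers followed, with 12 higher and 9 lower with P1-a2 in Panc10.05, 10 and 3 in BxPC3, and 9 and 3 with the dual guides. The falls in Panc10.05 were close to the 37.8% of all genes at the level, and the rises stood above the 34.7%. SLC9A2, an apical sodium-proton exchanger, was 24.9 and 20.9 CPM in the Panc10.05 controls, 40.5 and 44.3 with P1-a2 and 41.7 and 38.7 with P2-a8. In BxPC3 it went from 8.72 and 7.19 to 29.3 and 34.7 with P1-a2 and to 14.1 and 13.8 with P2-a8. With the dual guides it fell from 36.2 and 29.9 to between 3.35 and 4.17, a log2 change of -3.17 ± 0.28 (adjusted p = 5.49e-06). The induced changes were 0.89 ± 0.08 and 2.05 ± 0.12 with P1-a2, and no induced library overlapped its control.

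SLC9A3, the apical exchanger NHE3 of gut and kidney, moved with the guides in ASPC1. It was 84.6 and 75.2 CPM with sgNC and 11.1 to 16.0 with the dual guides, a log2 change of -2.61 ± 0.26 (adjusted p = 2.09e-05). The P1 guides stood apart from each other, at 57.8 and 51.5 with sgP1E and 31.0 and 25.2 with sgP1J, and the P2 guides at 78.0 to 93.4. The difference of the P2 from the P1 guides was 1.09 ± 0.22 (0.0183), lost without the first sgP2D or sgP2G library, and the group of P1 guides did not pass against sgNC (-0.98, adjusted p = 0.19). In both induced lines the gene stayed between 10.3 and 15.5. PP7080 on the same strand and EXOC3 on the other overlap its exons, so reads of these genes can enter its count.

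SLC26A6, an apical exchanger of chloride for bicarbonate or oxalate, rose in both induced lines. It was 15.5 and 14.1 CPM in the Panc10.05 controls, 35.1 and 32.9 with P1-a2 and 33.6 and 38.4 with P2-a8, and 25.3 and 23.5 in the BxPC3 controls, 96.9 and 118 with P1-a2 and 50.6 and 56.4 with P2-a8. The log2 changes were 1.20 ± 0.09, 1.27 ± 0.09, 2.17 ± 0.11 and 1.17 ± 0.11 in that order. In ASPC1 it lay between 12.6 and 20.3 in all 14 libraries and was not called. The sulfate carrier SLC26A2 rose by 0.90 ± 0.08 and 0.89 ± 0.12 with P1-a2 in the induced lines and also by 0.91 ± 0.18 with the dual guides.

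SLC41A2 was close to silent in the BxPC3 controls and not in the others. It stood there at 0.569 and 0.634 CPM, at 10.8 and 12.4 with P1-a2 and at 4.89 and 5.31 with P2-a8. In Panc10.05 it was 37.0 and 35.7 in the controls and 46.2 and 44.2 with P1-a2, and in ASPC1 71.3 to 102. The log2 change with P1-a2 was 4.28 ± 0.20 in BxPC3 and 0.32 ± 0.07 in Panc10.05.

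SLC20A1, the sodium-phosphate importer PiT1, rose in Panc10.05 from 112 and 103 CPM to 372 and 345 with P1-a2 and to 206 and 199 with P2-a8. It had the lowest p of all carriers with P1-a2 there, a log2 change of 1.74 ± 0.06 (adjusted p = 4.49e-26), and rose by 0.68 ± 0.09 (0.000346) in BxPC3. SLC12A2, the sodium-potassium-chloride carrier NKCC1, rose by 0.42 ± 0.08 and 0.32 ± 0.07 with P1-a2 (the BxPC3 call lost without the second control, adjusted p = 0.0545) and by 1.08 ± 0.09 (6.53e-07) with the dual guides, from 46.5 and 44.8 CPM to between 88.5 and 104. The bicarbonate carrier SLC4A7 and its family member SLC4A11 fell with P1-a2 in Panc10.05, by 1.81 ± 0.13 and 2.41 ± 0.20. SLC4A7 was 38.1 to 41.5 in the 6 BxPC3 libraries and was not called there against NC.

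Of the 20 zinc, copper and iron carriers, 8 rose and 7 fell with P1-a2 in Panc10.05, 8 rose and none fell in BxPC3, and 4 rose and 3 fell with the dual guides. In Panc10.05 these counts were close to the 34.7% and 37.8% of all genes at the level, while in BxPC3 those shares were 22.2% and 19.6%. SLC30A1, the zinc exporter of the plasma membrane, was 31.4 and 26.03 CPM in the Panc10.05 controls, 65.5 and 70.1 with P1-a2 and 61.1 and 52.2 with P2-a8, and rose in BxPC3 from 50.6 and 53.5 to 79.8 and 79.3 with P1-a2. The log2 changes with P1-a2 were 1.24 ± 0.08 and 0.64 ± 0.07. The zinc importer SLC39A10 rose by 0.88 ± 0.08 in Panc10.05 and not in BxPC3 (-0.02 ± 0.11). SLC31A1, the copper importer CTR1, rose in both, by 0.34 ± 0.06 and 0.80 ± 0.06.

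In ASPC1, SLC11A2, the iron importer DMT1, was the metal carrier that passed most firmly with the P2 guides. It stood at 35.4 to 44.2 CPM against 59.5 and 61.5 with sgNC, a log2 change of -0.66 ± 0.08 (adjusted p = 0.000857), and at 49.3 to 53.4 with the P1 guides. SLC39A6, a zinc importer, was 59.0 to 63.1 with the P2 guides, 78.4 and 71.3 with sgNC and 119 to 128 with the dual guides. Its change with the dual guides was 0.70 ± 0.09 (2.64e-05). The intestinal zinc importer SLC39A4 was 83.7 and 81.5 with sgNC and 43.4 to 48.6 with the dual guides, a call lost without the first sgNC library (adjusted p = 0.0787), and its P1 guides did not overlap, at 38.4 and 42.3 with sgP1E and 68.9 and 76.6 with sgP1J.

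The 34 carriers of monocarboxylates, organic ions, lipids, choline, vitamins and nucleosides gave 14 rises and 9 falls of 30 tested with P1-a2 in Panc10.05, 10 and 10 of 33 tested in BxPC3, and 9 and 7 of 32 with the dual guides. The shares of all genes at the level were 34.7% and 37.8%, 22.2% and 19.6%, and 20.7% and 23.9%. Between the isoforms in Panc10.05, 2 of 30 tested were higher with P1-a2 and 15 lower. There the shares were 22.2% and 24.7% of all genes and 26.5% and 31.5% of those at the level. All 3 tested members of the SLC44 family, choline carriers and their relatives, were lower with P1-a2 than with P2-a8 in Panc10.05. Their median was -0.87, beside -0.002 over all genes. All 3 tested members of SLC29 and all 3 of SLC6 were lower there too, at medians of -0.475 and -0.551. In BxPC3 all 4 SLC44 members were lower with P1-a2 than with P2-a8, at a median of -0.43, beside -0.014 over all genes. The shares higher and lower there were 11.6% and 10.8% of all genes and 15.6% and 15.0% of those at the level.

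SLC44A2, the choline carrier that is also the antigen of human neutrophil alloantibodies, was 342 and 334 CPM in the Panc10.05 controls, 309 and 343 with P2-a8 and 89.3 and 109 with P1-a2. In BxPC3 it was 162 and 160, 141 and 140, and 100 and 104 in the same order. With P1-a2 the log2 change in Panc10.05 was -1.77 ± 0.07 (adjusted p = 1.73e-18) and that in BxPC3 -0.62 ± 0.05 (8.95e-06), while with P2-a8 the groups overlapped in Panc10.05. SLC44A1 fell with P1-a2 by 1.07 ± 0.07 and 0.54 ± 0.06. In ASPC1 SLC44A2 was under 8 CPM in every library.

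SLC22A3, the organic cation carrier OCT3, tracked the guides in ASPC1. It was 131 and 127 CPM with sgNC, 98.9 to 157 with the P1 guides, 182 to 208 with the P2 guides and 35.5 to 42.7 with the dual guides. The change was -1.70 ± 0.13 (adjusted p = 5e-07) with the dual guides and 0.57 ± 0.13 (0.0339) with the P2 guides, the latter lost without either sgNC library, either sgP2D library or the first sgP2G library. In BxPC3 it rose from 15.8 and 17.9 to 30.5 and 29.4 with P1-a2 and 31.6 and 29.7 with P2-a8.

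SLC16A1, the lactate carrier MCT1, went in different directions by line. It was 140 and 130 CPM in the Panc10.05 controls and 104 and 93.3 with P1-a2 (-0.45 ± 0.06), 85.4 and 91.3 in the BxPC3 controls and 129 and 124 with P1-a2 (0.55 ± 0.06), and 116 and 112 with sgNC against 67.1 to 84.1 with the dual guides (-0.60 ± 0.10). The myo-inositol carrier SLC5A3 rose with the dual guides from 74.2 and 98.0 to between 178 and 270, a log2 change of 1.35 ± 0.31 (adjusted p = 0.00549, and 0.0865 without the first sgNC library). MRPS6 on the same strand shares exon bases with it, so reads of that gene can enter its count. The nucleoside carrier SLC29A1 fell with the dual guides from 69.3 and 57.1 to between 29.5 and 37.2, and the fatty acid carrier SLC27A4 rose with P1-a2 by 1.29 ± 0.06 in BxPC3 and 0.27 ± 0.07 in Panc10.05, the latter lost without the second P1-a2 library (adjusted p = 0.0644).

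The SLC35 family is best known for carriers that bring nucleotide sugars into the Golgi and endoplasmic reticulum, and it also holds the SLC35F and SLC35G genes, which are not established as such. Of its 23 members, 8 rose and 8 fell with P1-a2 in Panc10.05, 9 rose and none fell in BxPC3, and 7 rose and 5 fell with the dual guides. The counts in Panc10.05 were close to the 34.7% and 37.8% of all genes at the level. In BxPC3 the shares of all such genes were 22.2% and 19.6%, and with the dual guides they were 20.7% and 23.9%. SLC35D1 was 28.9 and 25.5 CPM in the Panc10.05 controls and 48.8 and 51.03 with P1-a2, 24.5 and 26.4 in the BxPC3 controls and 52.4 and 50.2 with P1-a2, and 26.3 and 24.9 with sgNC against 10.2 to 12.6 with the dual guides. The log2 changes were 0.88 ± 0.08, 1.04 ± 0.07 and -1.12 ± 0.15, with no overlap of libraries in any of these. With P2-a8 SLC35D1 was 35.2 and 32.2 CPM in Panc10.05 and 29.98 and 29.8 in BxPC3. SLC35A1, the CMP-sialic acid carrier, fell in Panc10.05, by 1.14 ± 0.10 with P1-a2 and 0.56 ± 0.10 with P2-a8, and did not pass the threshold in the other lines against NC or sgNC. SLC35F3 rose with both the P2 guides (1.73 ± 0.27) and the dual guides (2.45 ± 0.27), from 2.52 and 2.45 CPM with sgNC to 6.52 to 10.6 and 10.6 to 16.2. The call with the P2 guides was lost without either sgNC library. SLC35F3 reached the level with the dual guides only, so the rule that chose it favoured its rise there.

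The 11 lysosomal and other carriers gave 6 rises and 4 falls with P1-a2 in Panc10.05, 3 and 1 in BxPC3, and 5 and 1 with the dual guides, numbers too small to set against the 34.7% and 37.8%, 22.2% and 19.6%, and 20.7% and 23.9% of all genes at the level. SLC66A1, the lysosomal exporter of cationic amino acids, was 18.96 and 19.8 CPM in the Panc10.05 controls, 36.1 and 39.0 with P1-a2 and 29.3 and 31.0 with P2-a8, and 16.0 and 17.6 in the BxPC3 controls, 50.01 and 61.1 with P1-a2 and 25.5 and 21.7 with P2-a8. The log2 changes with P1-a2 were 0.96 ± 0.08 and 1.75 ± 0.12. SLC17A5, the lysosomal sialic acid exporter, rose in both induced lines with P1-a2, from 47.9 and 47.7 to 74.0 and 74.0 in Panc10.05 and from 10.2 and 10.5 to 16.3 and 17.8 in BxPC3, and also rose with the dual guides, from 23.1 and 29.7 to between 52.1 and 58.6.

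**Figure D4:**
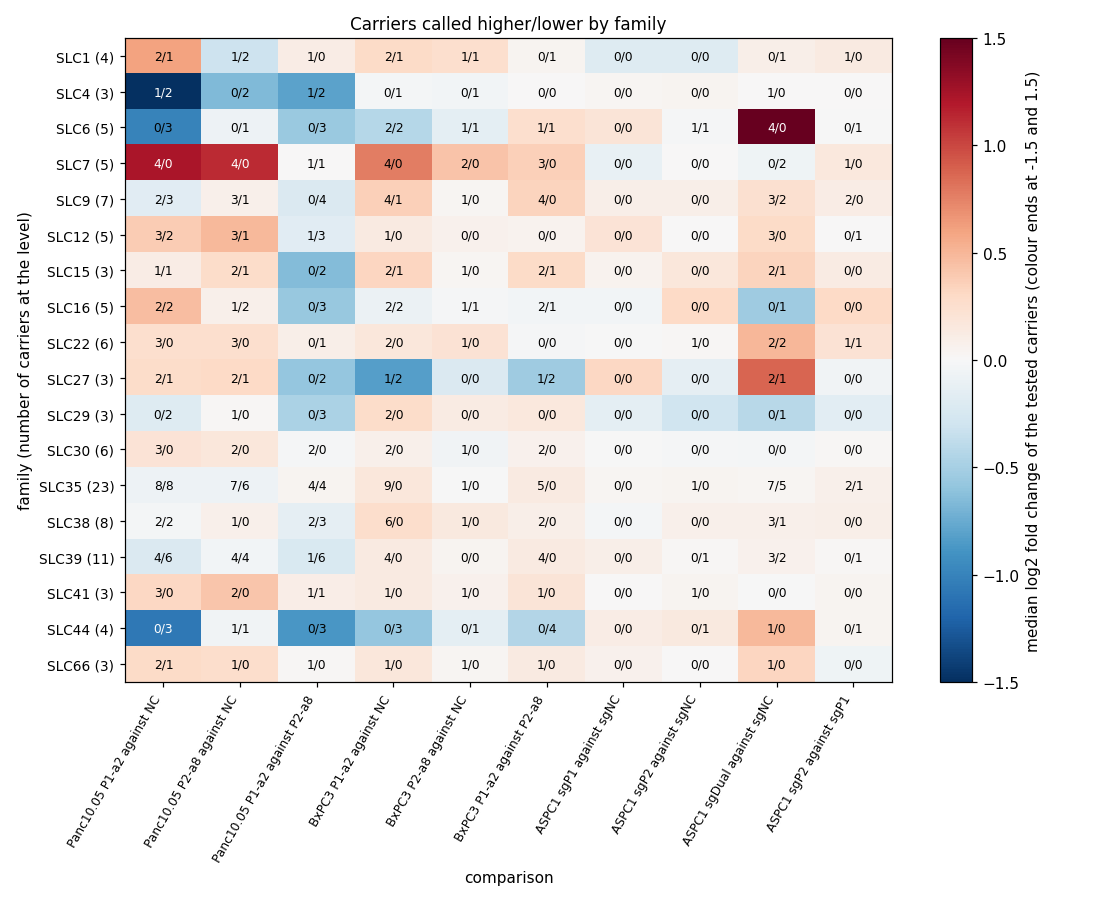
Families with 3 or more members (rows, number of carriers in brackets) in each comparison (columns). Each cell gives the number of members called higher and lower, and its colour the median log2 fold change of the tested members. SLC7 is 4/0 with P1-a2 in both induced lines, SLC44 is 0/3 there, and SLC6 is 4/0 with the dual guides, of which 2 calls were lost without the first sgNC library.

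By family, 18 families had 3 or more members. With P1-a2, no member fell in SLC7, SLC30, SLC22 or SLC41 in either induced line, and the counts of rises in these families were 4, 3, 3 and 3 in Panc10.05 and 4, 2, 2 and 1 in BxPC3. No member of SLC44 rose in either. The zinc importers of SLC39 were split in Panc10.05, with 4 higher and 6 lower of 11, and went 4 to 0 in BxPC3. The nucleoside family SLC29 had 2 of 3 members lower in Panc10.05 and 2 of 3 higher in BxPC3. With the dual guides the chloride-cation family SLC12 had 3 of 5 higher and none lower, and the zinc exporters of SLC30 had none called of 6. The rise of SLC41A3 in Panc10.05 was lost with DESeq2 and without any of 5 libraries (both controls, both P2-a8 libraries and the second P1-a2 library, adjusted p up to 0.279). The shares of all genes higher and lower were 31.5% and 30.5% with P1-a2 in Panc10.05, 17.1% and 14.9% in BxPC3 and 17.8% and 17.8% with the dual guides. A family's counts rest on few genes and were not tested as a list.

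Between lines, which share no library, 31 carriers rose with P1-a2 in both induced lines. They were 51.7% of the 60 risen in Panc10.05 and 55.4% of the 56 risen in BxPC3, of 133 tested in both, while among all genes the shared rises were 32.1% and 56.4%. The shared falls were 10 carriers, 22.2% and 58.8%, and 27.4% and 59.4% among all genes. With P2-a8, 10 rises were shared, 17.9% of the Panc10.05 list and 76.9% of the BxPC3 list, and 11.1% and 61.2% among all genes.

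The difference of the P1-a2 response between Panc10.05 and BxPC3 was called for 77 of 142 carriers (36.4% of all genes) and that of the P2-a8 response for 52 (23.5% of all genes). Among all genes at the level the shares were 51.4% and 34.9%, so the carriers' counts were close to those of other genes of their level. The line, the dose and the sequencing project cannot be told apart here. P1-a2 differences were taken as Panc10.05 minus BxPC3, and ranked among carriers with 10 CPM or more in some group of both lines. The widest negative ones were SLC41A2, SLC15A1 and SLC15A3. SLC41A2 and SLC15A1 rose more in BxPC3, while SLC15A3 fell more deeply in Panc10.05. The widest positive ones were SLC46A1, the proton-coupled folate carrier, SLC20A1 and SLC12A4. Without that limit, wider positive differences were those of SLC22A15 (3.99 on the log2 scale, from 2 counts in the Panc10.05 controls), SLC43A3 (3.72) and SLC1A3 (3.62). All 3 were under 5 CPM in Panc10.05. SLC46A1 went from 19.3 and 16.3 CPM to 38.4 and 37.3 with P1-a2 in Panc10.05 and was 26.2 and 25.8 against 25.1 and 21.9 in BxPC3. SARM1 overlaps its exons on the other strand.

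**Figure D5:**
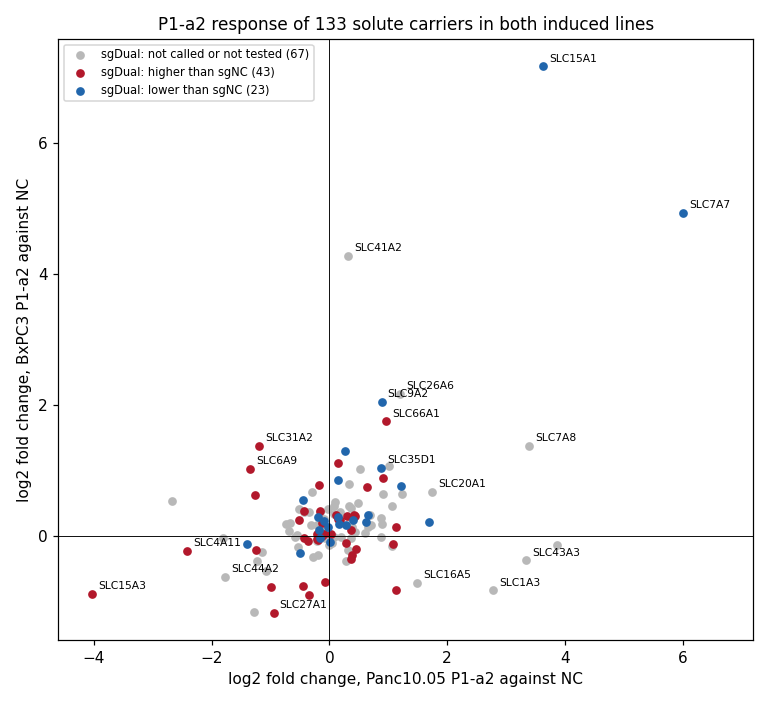
Log2 fold change with P1-a2 in Panc10.05 (x axis) against that in BxPC3 (y axis) for the 133 carriers tested in both, coloured by the call with the dual guides in ASPC1. Of the 2 carriers above 4 in BxPC3 and above 3 in Panc10.05, SLC15A1 and SLC7A7, both are lower with the dual guides, and SLC41A2 is high in BxPC3 alone.

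A pattern over all 3 lines, higher with P1-a2 in both induced lines and lower with the dual guides, held for 9 of 130 carriers (6.92%). It held for 3.32% of all genes and 4.18% of those at the level. The 9 carriers were SLC15A1, SLC7A7, SLC9A2, SLC35D1, SLC7A5, SLC27A4, SLC38A5, SLC22A18 and SLC35B1. SLC38A5 was near the floor outside BxPC3, with 0.12 and 0.0867 CPM in the Panc10.05 controls and 0.437 and 0.259 with P1-a2. SLC22A18 and SLC35B1 changed by less than 1 on the log2 scale in each line, with 0.41, 0.25 and -0.87 for SLC22A18 and 0.65, 0.32 and -0.21 for SLC35B1. The mirror pattern, lower with P1-a2 and higher with the dual guides, held for 6 carriers (4.62%). It held for 2.63% of all genes and 3.38% of those at the level. The 6 carriers were SLC15A3, SLC27A1, SLC44A3, SLC45A4, SLC4A11 and SLC6A6. SLC15A1, SLC7A7, SLC9A2 and SLC35D1 kept all 3 calls under every alternative run, and each of the other 11 carriers of both patterns, the mirror pattern's 6 included, lost at least 1. The dual-guide calls of SLC7A5, SLC27A4, SLC15A3, SLC27A1, SLC44A3, SLC45A4 and SLC6A6 were lost without the first sgNC library. With P1-a2 in Panc10.05, SLC27A4 was lost without the second P1-a2 library (adjusted p = 0.0644) and SLC44A3 without the first (0.266). With P1-a2 in BxPC3, SLC4A11 was lost without the second control or the first P1-a2 library (up to 0.129), SLC35B1 without the first control or the second P1-a2 library (up to 0.0877), and SLC22A18, at an adjusted p of 0.049, without any 1 library and with DESeq2. SLC38A5 lost its call in each line when a control library was left out, with an adjusted p of up to 0.212.

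With P2-a8 in place of P1-a2, SLC15A1, SLC7A7 and SLC9A2 held the first pattern (2.31% of carriers, 0.895% of all genes). SLC45A4 and SLC4A11 held the second (1.54% of carriers, 0.399% of all genes). Among genes at the level the shares were 1.08% and 0.526%. The P2-a8 call of SLC45A4 in Panc10.05 was lost with DESeq2 and without the first P2-a8 or first control library (adjusted p up to 0.653). That of SLC4A11 was lost without the first P2-a8 library in Panc10.05 (0.0804) and without the second control in BxPC3 (0.0807), so neither held the pattern under every alternative. The dual guides are common to both forms of the pattern, and P1-a2 and P2-a8 share controls.

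Within ASPC1, guides to the same promoter could be compared with 2 libraries each. Of 138 carriers, 37 differed between sgP1E and sgP1J (14.5% of all genes), 26 of them higher with sgP1E. Only 4 differed between sgP2D and sgP2G (1.69% of all genes) and 2 between sgDual2 and sgDual3 (0.883% of all genes). SLC9A3, SLC39A4 and SLC5A3 are among the 37, and SLC5A3 was 126 and 153 CPM with sgP1E and 72.9 and 69.8 with sgP1J. These comparisons were added after the data were seen. The P1 group of 4 libraries therefore holds a spread between guides beside that between replicates.

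Of 24 partner genes of the carriers (accessory chains, scaffolds, sodium pump subunits and carbonic anhydrases), 23 were tested in Panc10.05, where 7 rose and 7 fell with P1-a2, close to the 31.5% and 30.5% of all genes. In BxPC3 9 of 22 rose and 4 fell (17.1% and 14.9% of all genes), and with the dual guides 6 of 20 rose and 4 fell (17.8% and 17.8% of all genes). PDZK1, a scaffold of apical carriers, went from a mean of 0.212 CPM to 10.2 with P1-a2 and 13.6 with P2-a8 in Panc10.05, log2 changes of 5.58 and 5.995. NHERF1, the scaffold that binds SLC9A3, rose with P1-a2 by 1.38 in Panc10.05 and 0.60 in BxPC3 and fell by 1.502 with the dual guides, and its paralog NHERF2 changed by -1.83, -0.54 and 0.93. The carbonic anhydrase CA12 rose by 1.24 with P1-a2 in BxPC3 and fell by 2.20 with the dual guides. All of these values for PDZK1, NHERF1, NHERF2 and CA12 passed the threshold.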

How the data were processed

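The deposited files are gene counts, 1 table per line, that the authors made from poly(A)-selected, directional, paired-end libraries, per the labels' protocols. Per the submitters' processing notes, the tools were STAR 2.7.9a, cutadapt 1.16, featureCounts 1.6.3 and DESeq2 1.36.0 with GRCh38. The annotation and strand setting are not given in the sources used here, so reads of genes overlapping on either strand may be counted (48 carriers overlap an opposite-strand gene and 20 a same-strand one in GENCODE 29).

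Counts were tested with edgeR 4.0.16 in R 4.3.3 (filterByExpr, TMM, factors 0.981 to 1.026, quasi-likelihood, all groups of a table in 1 fit, no replicate block), with p-values adjusted over the whole table. The response differences used 1 fit of both induced lines. CPM are counts over the library total. In simulated counts with 1 fixed spread and no difference between guides, the tests recovered most set changes of 1 on the log2 scale. Recovery with the real spread between libraries and guides was not tested. DESeq2 1.42.0, other scalings, no filter, a replicate block and leaving out libraries or guides were alternatives. IDs matched symbols for 99.88% or more of rows.

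The members and lists were chosen with earlier results of these data known. Named genes are the 4 widest rises and falls per comparison among called carriers of 10 CPM or more without overlap, the highest and lowest member per kilobase of each family with 3 or more members, those moved in 3 lines, the 3 widest response differences each way, and a followed list. SLC17A5, SLC26A2, SLC31A1, SLC35A1 and SLC39A10 fall outside it and were chosen after their values were seen.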

Additional observations from a re-analysis of the deposited data

Results flagged for a closer look

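The response to P1-a2 differed between Panc10.05 and BxPC3 by an interaction test (edgeR, adjusted over all genes, Panc10.05 minus BxPC3 on the log2 scale) for 6 named carriers. SLC46A1 differed by 1.22 (adjusted p = 1.03e-07), SLC20A1 by 1.08 (2.78e-07) and SLC12A4 by 1.01 (0.000399), while SLC41A2 differed by -3.95 (3.01e-13), SLC15A1 by -3.54 (7.44e-07) and SLC15A3 by -3.14 (1.71e-10). For P2-a8 the same test gave 1.26 (2.23e-07) for SLC46A1, 1.13 (4.97e-07) for the riboflavin carrier SLC52A3 and 0.81 (3.08e-05) for SLC20A1, and -2.61 (3.63e-09) for SLC41A2, -1.22 (5.83e-05) for the copper carrier SLC31A2 and -1.08 (0.000108) for SLC15A3. Doxycycline dose and sequencing project also differ between the lines and cannot be told apart from them. LCAT overlaps SLC12A4 and FKBP15 overlaps SLC31A2.

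A library stood apart within its group for a pair of carriers. SLC11A2 was 49.27 CPM in the first sgP1E library and 53.02 to 53.39 in the other 3 P1 libraries, and SLC22A18 was 40.04 in the second sgP2D library and 35.83 to 36.20 in the other 3 P2 libraries. Chance flags about 1 in 20 groups, and 2 of 160 groups of 4 libraries were flagged.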

How the results depend on the processing

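No called value of a single carrier reversed, but 95 of 294 lost the threshold under at least 1 alternative, most often when a control library was left out. The counts of carriers called in Panc10.05, and in BxPC3 between isoforms or with P1-a2, stayed within 1.5 times under the settings run with all libraries. Leaving out 1 library gave 94 to 104 carriers for P1-a2, 76 to 88 for P2-a8 and 59 to 76 between isoforms in Panc10.05, and 57 to 76, 11 to 26 and 42 to 52 in BxPC3. For BxPC3 P2-a8 (24 carriers) the replicate block gave 45. For the P1 guides (0 carriers), the replicate block gave 2, DESeq2 3, 7 groups by guide 15, sgP1E left out 5 and sgP1J left out 22, and leaving out 1 library 0. For the P2 guides (9), the replicate block gave 17, DESeq2 23, a fit of both groups alone 19, 7 groups by guide 34, sgP1E or sgP1J left out 30 or 31, sgP2D left out 5, sgP2G, sgDual2 or sgDual3 left out 4, and 1 library left out 2 to 13. For the dual guides (69), 1 library left out gave 36 to 73. For the P2 against the P1 guides (16), a fit of both groups alone gave 6, 7 groups by guide 35, sgP1E left out 44, sgP2D or sgP2G left out 8, and 1 library left out 8 to 22. With P2-a8 in place of P1-a2, the patterns over 3 lines held for 3 and 2 carriers in place of 9 and 6. The cause of these changes was not tested. Replicate numbers were not taken to pair the libraries, since no label ties them to a shared batch and not every pair's correlation was over 0.1: same-numbered libraries correlated at -0.012 to 0.007 in Panc10.05, 0.073 to 0.131 in BxPC3 (2 of 3 pairs over 0.1) and 0.077 to 0.339 in ASPC1 (15 of 21 pairs over 0.1). All were above 0 in BxPC3 and ASPC1, which is a hint from the data, not the design, that libraries of a number share a deviation there. With a group of 1 library, the lone library is assumed to vary like the others. Depth limits genes of few counts, such as SLC7A8 in Panc10.05.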
